A study of Homo sapiens with 10 samples.

Results

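The clustered histone genes are the genes for the core and linker histones that lie in the 4 groups named HIST1 to HIST4. In the gene-level table of the human neuroblastoma line SH-SY5Y they were taken as the rows whose symbol starts with HIST1H, HIST2H, HIST3H or HIST4H. Of 91 such rows, the 14 whose names end in PS and a number were left out, which left 77 genes of the 58174 in the table. They comprised 6 genes for H1, 17 for H2A, 23 for H2B, 16 for H3 and 15 for H4. Levels are given in TPM, the abundance of a gene's transcripts per length, scaled to the same total in each library.

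The study measured RNA in 10 libraries of SH-SY5Y, an established line of adrenergic neuroblast character. The siTDP-43 group (3 libraries) received a siRNA pool against TDP-43 and the siControl group (3 libraries) a control pool, each at 50 nM for 96 h in repeated doses with Lipofectamine RNAiMAX. The N352S group (2 libraries) is homozygous for the TDP-43 change N352S, which is linked to amyotrophic lateral sclerosis, and the wild-type group (2 libraries) carries TDP-43 wild type; the edited cells came from genome editing and have no siRNA treatment in their labels. TDP-43, the product of TARDBP, is a nuclear RNA-binding protein that acts in splicing and in the choice of polyadenylation sites. The design text calls the libraries biological replicates, but whether they were separate cultures or edited clones is not stated, and p-values then speak only of the spread among them.

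Most clustered histone genes are replication-dependent: they are transcribed mainly in S phase, when new DNA has to be packed into nucleosomes, and they lack introns. Their messages do not normally end in a poly(A) tail but in a short stem-loop, which SLBP binds and behind which the U7 snRNP directs the cut. Some members also make longer, polyadenylated transcripts that run past the stem-loop, most often in cells that leave the cell cycle. How RNA was selected for these libraries (a TruSeq RNA kit on total RNA) is not given in the sources used here.

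The sequences that define these messages are shown for the members that carry the results. In the transcripts of GENCODE release 29 (GRCh38), a histone stem-loop was found on the sense strand in 35 members, in 33 after the coding part and in 2 that are annotated as pseudogenes with no coding part, against 0.0494% of 83047 protein-coding transcripts of other genes searched over their whole length. The stem-loop (capitals) lies in the 3′ UTR, 22 to 67 bases after the stop codon in the members shown, and each is given 5′ to 3′ with the bases beside it.
HIST3H2A: cataaaGGCTCTTTTCAGAGCCacctacta
HIST2H2AA3: tcaaaaGGCTCTTTTCAGAGCCacccacgt
HIST1H2AC: cccaaaGGCTCTTTTCAGAGCCcccctacc
HIST1H2BD: cccaaaGGCTCTTTTAAGAGCCacgcatgt
HIST2H2BE: tccaaaGGCTCTTTTCAGAGCCacccacct
HIST2H2BF: cccaaaGGCTCTTTTCAGAGCCacttcagt
HIST1H3E: tccaaaGGCTCTTCTCAGAGCCaaccactt
HIST2H4A: cccaaaGGCCCTTTTTAGGGCCgaccactt
HIST1H4J: ataaaaGGCCCTTTTCAGGGCCacccta

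The most frequent form, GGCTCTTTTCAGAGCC, stood in 19 members, 6 of them H2A, 9 H2B and 4 H3 genes. The 8 H4 genes with a match had another stem, as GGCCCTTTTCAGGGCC in 5 and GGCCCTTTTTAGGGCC in 3. The variant of HIST1H3E, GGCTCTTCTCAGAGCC, was found in that member alone among the 35. HIST1H2BK, HIST1H1C, HIST1H4K and HIST2H2AC are annotated in GENCODE 29 by their coding part alone, so no stem-loop could be looked for in them.

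Many of the members that were measured at appreciable levels are annotated well past the stem-loop. Of the 26 protein-coding members that averaged at least 1 TPM across the 10 libraries, 15 have a transcript that goes on for more than 100 bases after it, and 9 have a transcript with more than 1 exon. Of the 45 protein-coding members below 1 TPM, 9 go on for more than 100 bases and 29 are annotated by the coding part alone. Among the members shown, HIST1H3E continues for 1862 bases, HIST2H2BE for 1729, HIST2H2BF for 1479, HIST2H4A for 1167, HIST1H2AC for 1128 and HIST3H2A for 390. HIST1H2BD continues for 39 bases, HIST2H2AA3 for 35 and HIST1H4J for 6. These lengths and counts take only the transcripts in which the stem-loop was found. The longest 3′ UTR annotated for HIST1H2BD is 384 bases. HIST1H2BJ, in which no stem-loop was found, has a 3′ UTR of up to 569 bases and is not among the 15. The gene model sets the length to which a TPM is scaled, and which of these ends was present in the RNA was not tested.

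Promoters are shown for 3 members that were lower in N352S libraries, a pair of H2B genes with all 3 motifs searched and an H4 gene with none. Other promoter elements were not searched. Each is the 250 bases before the RefSeq start (GRCh38.p14), 5′ to 3′ on the gene's strand, and capitals mark the CCAAT box, the TATA motif TATAAA and the octamer motif ATTTGCAT on either strand.
HIST1H2BK, chr6:27146859-27147108, minus strand: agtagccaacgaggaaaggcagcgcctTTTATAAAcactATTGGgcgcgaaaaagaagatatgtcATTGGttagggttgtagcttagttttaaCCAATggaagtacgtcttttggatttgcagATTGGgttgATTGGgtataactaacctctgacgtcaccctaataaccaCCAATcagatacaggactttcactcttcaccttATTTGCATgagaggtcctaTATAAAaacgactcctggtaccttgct
HIST2H2BE, chr1:149886683-149886932, minus strand: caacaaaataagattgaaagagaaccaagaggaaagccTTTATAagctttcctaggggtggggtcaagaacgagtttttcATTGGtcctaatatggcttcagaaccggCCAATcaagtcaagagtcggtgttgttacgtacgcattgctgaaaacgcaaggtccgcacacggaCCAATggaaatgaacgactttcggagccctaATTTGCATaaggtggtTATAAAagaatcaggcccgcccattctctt
HIST2H4A, chr1:149832407-149832656, plus strand: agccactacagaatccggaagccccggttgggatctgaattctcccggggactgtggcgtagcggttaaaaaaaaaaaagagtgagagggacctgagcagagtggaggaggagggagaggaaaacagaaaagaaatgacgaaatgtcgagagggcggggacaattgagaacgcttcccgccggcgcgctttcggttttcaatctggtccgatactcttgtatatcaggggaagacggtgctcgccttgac

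HIST1H2BK held 6 matches to CCAAT, 3 to TATAAA (of which 2 overlap each other on opposite strands) and 1 octamer, which begins 46 bases before the start. HIST2H2BE held 3, 2 and 1, with its octamer also 46 bases before the start. Promoters of 61 members were matched in the table of 27305 promoters, each searched from 250 bases before to 50 after the start. Both rows of HIST1H3D and the H2A gene HIST1H2AD share one interval, which left 59 distinct promoters, and that interval is counted once for H3 and once for H2A below. CCAAT was found in 83.1% of the distinct promoters, against 35.7% of all promoters, TATAAA in 67.8% against 12%, and the octamer in 33.9% against 1.8%. By type, CCAAT stood in every H1, H2A, H2B and H3 promoter matched and in 23.1% of the 13 H4 promoters. The octamer stood in 68.8% of H2A, 69.2% of H2B and 8.33% of the 12 H3 promoters (the shared one alone), and in none of the 6 H1 and 13 H4 promoters. Of the 24 promoters of members with at least 1 TPM, 37.5% held the octamer, and of the 35 of members below it 31.4%.

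TARDBP itself, the check of the labels, averaged 64.4 ± 2.91 TPM in siTDP-43 and 255.8 ± 0.433 TPM in siControl libraries (SD, n = 3 each), and 122.6 ± 0.332 TPM in N352S and 200.5 ± 6.97 TPM in wild-type libraries (SD, n = 2 each). The number of genes at 1 TPM or more was 16711 to 17398 per library, and the depth of the libraries is unknown because TPM does not keep it. Of 8 noradrenergic neuroblastoma markers, all averaged at least 1 TPM in siTDP-43, siControl and N352S libraries and 7 in wild-type ones, with summed levels of 5284 to 5467 TPM in siTDP-43 and 4602 to 4809 TPM in siControl libraries, and 4051 to 4321 TPM in N352S and 4425 to 4507 TPM in wild-type libraries. The sums of 5 fibroblast markers were 81.2 to 85.4 TPM in siTDP-43 and 58.3 to 65.1 TPM in siControl libraries, without overlap, with PDGFRB and LUM of the 5 called higher, and 61.3 to 62.1 TPM in N352S and 56.5 to 75.5 TPM in wild-type libraries, with DCN called lower. Summed levels of 5 markers of glia or Schwann cell precursors were 4.17 to 5.68 TPM in siTDP-43 and 5.42 to 7.68 TPM in siControl libraries, and 7.27 to 8.46 TPM in N352S and 9.19 to 10.1 TPM in wild-type libraries. Those of 3 leukocyte markers were 1.18 to 2.17 TPM over the 10 libraries, and CD3E was listed at 0 in every one. Mitochondrial genes took 15.5% to 16.2% of the TPM in siTDP-43 and 11.998% to 14.3% in siControl libraries, and 13.6% to 14.1% in N352S and 13.97% to 14.8% in wild-type libraries. The part of these differences in the histone results was not tested. In such bulk RNA, fewer cells of a kind (here, fewer cells in S phase) and less RNA per cell cannot be told apart.

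**Figure D1:**
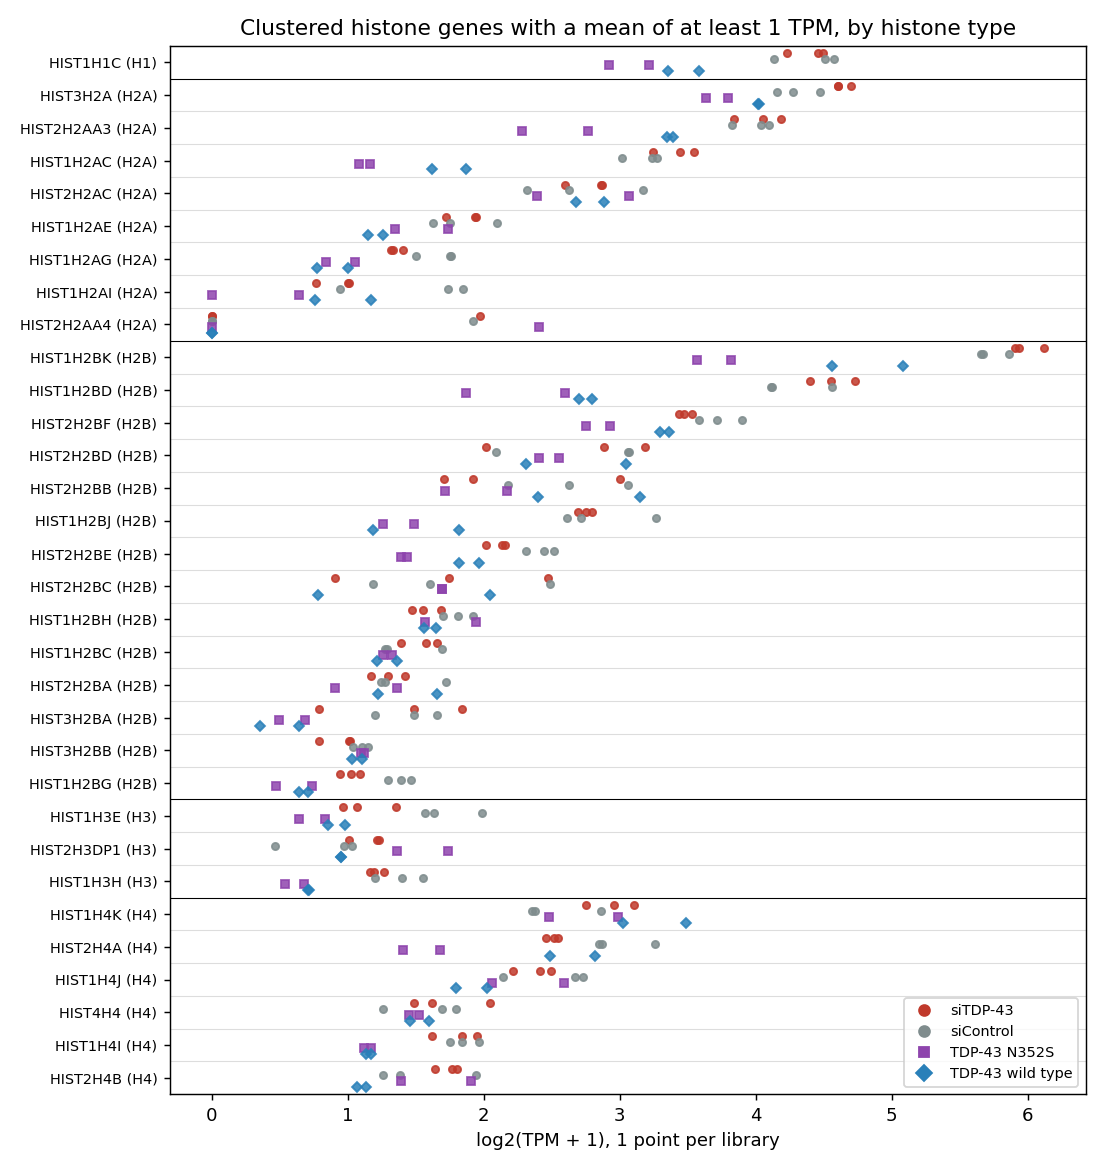
Level of the 32 clustered histone genes that averaged 1 TPM or more, as log2(TPM + 1) on the horizontal axis, 1 point per library, ordered by histone type and mean. Red circles are siTDP-43, grey circles siControl, purple squares N352S and blue diamonds wild-type libraries; HIST1H2BK stands highest on average and its N352S points (10.8 and 13.1 TPM) lie left of its wild-type points (22.6 and 32.9 TPM).

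The clustered histone genes were low in these cells. All 77 together made up 0.01% to 0.0263% of the TPM of a library. An average of 1 TPM or more was reached by 32 members, 1 H1, 8 H2A, 14 H2B, 3 H3 and 6 H4 genes. Of these, 26 are protein-coding, and the rest are the 6 members without that annotation. At least 5 TPM was reached by 10 members and at least 10 TPM by 5. Of the HIST1 group on chromosome 6, 16 of 56 members reached 1 TPM, against 12 of 16 members of HIST2 and 3 of 4 of HIST3. HIST1H1A, HIST1H2AA, HIST1H2BA (the H2B of testis) and HIST1H4G were listed at 0 in all 10 libraries, and 46 members were above 0 in all of them. Just inside the limit of 1 TPM stood HIST2H2AA4 with a mean of 1.00 TPM and HIST1H2BG with 1.02 TPM, and just outside it HIST1H2BN with 0.973 TPM and HIST1H2AK with 0.922 TPM.

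A few genes held a large share of the signal. HIST1H2BK, an H2B gene, averaged 42.4 TPM over the 10 libraries, followed by HIST3H2A (H2A) at 18.3, the linker histone gene HIST1H1C at 15.7, HIST1H2BD (H2B) at 14.2 and HIST2H2AA3 (H2A) at 11.9 TPM. These 5 genes made up 57.2% to 59.0% of the summed TPM of all members in siTDP-43 and 51.6% to 53.1% in siControl libraries, and 36.7% to 37.3% in N352S and 44.9% to 47.7% in wild-type libraries. HIST1H4K was the highest H4 gene at 6.36 TPM and HIST1H3E the highest H3 gene at 1.38 TPM. Members with starts within 1000 bases on opposite strands formed 14 pairs, in which HIST1H2BO and HIST1H2BF recur, and were unequal to differing degrees. HIST1H2BK and HIST1H2AH, 331 bases apart, averaged 42.4 and 0.106 TPM, and HIST3H2A and HIST3H2BB, 234 bases apart, 18.3 and 1.07 TPM. Closer were HIST2H2AA3 and HIST2H2BD with 11.9 and 5.59 TPM, and HIST2H2BE and HIST2H2AC with 3.18 and 5.82 TPM. Several pairs were below 1 TPM in both genes.

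Summed over all 77 members, the libraries held 251.5, 236.9 and 261.6 TPM of clustered histone RNA in siTDP-43 cells, against 236.4, 215.7 and 263.4 TPM in siControl cells. The groups overlapped: the siTDP-43 mean was 104.8% of the siControl mean, with an SD of 12.4 TPM among siTDP-43 and 24.0 TPM among siControl libraries (n = 3 each), and the means differed by less than either SD. In N352S cells the sums were 99.97 and 117.7 TPM, against 138.2 and 155.7 TPM in wild-type cells, so both N352S libraries lay below both wild-type ones. The N352S mean was 74.1% of the wild-type mean (108.8 ± 12.5 against 146.9 ± 12.4 TPM, SD, n = 2 each), and 81.3% without HIST1H2BK. Over the 71 protein-coding members alone, the N352S mean was 73.3% of wild type and the siTDP-43 mean 105.8% of siControl. The other 6 members held 6.74% of the sum in siTDP-43, 7.64% in siControl, 12.3% in N352S and 11.4% in wild-type libraries. Every siRNA library, siTDP-43 or siControl, held more than any genotype library; the experiments differ in treatment, and this gap was not tested.

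**Figure D2:**
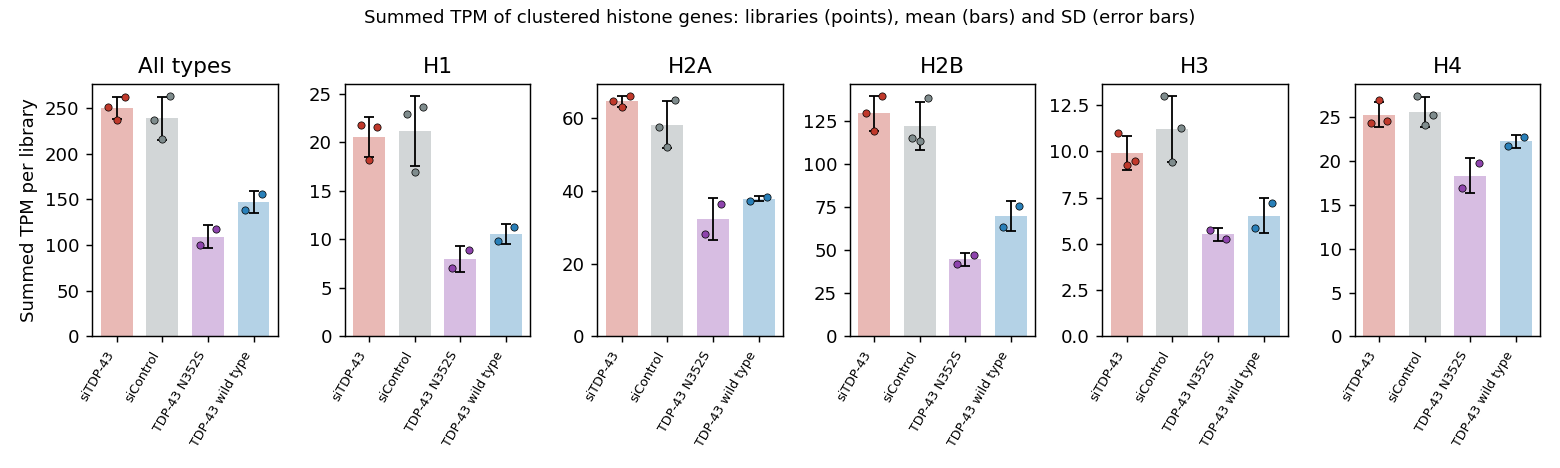
Summed TPM of the clustered histone genes by library (points) and group (bars for means, error bars for SD), for all types and for H1, H2A, H2B, H3 and H4, with 3 siTDP-43, 3 siControl, 2 N352S and 2 wild-type libraries. The H2B sum averaged 44.7 TPM in N352S and 69.7 TPM in wild-type libraries, against 129.5 TPM in siTDP-43 and 122.2 TPM in siControl libraries.

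The types contributed unequally to these sums. H2B genes made up 51.8% of the sum in siTDP-43 and 51.2% in siControl libraries, and 41.1% in N352S and 47.4% in wild-type libraries. The H2B sum in N352S libraries was 64.2% of that in wild-type libraries (44.7 ± 3.72 against 69.7 ± 8.81 TPM, SD, n = 2 each), that of H1 75.3%, of H4 82.5%, of H3 84.4% and of H2A 85.1%. Without HIST1H2BK the H2B sum was 32.7 ± 2.09 TPM in N352S and 41.9 ± 1.52 TPM in wild-type libraries, or 78.1%, between the values of the other types. Between siTDP-43 and siControl libraries the sums of the types lay between 88.4% (H3) and 111.0% (H2A) of control. The HIST3 sum, mostly HIST3H2A, was 27.0 ± 1.63 TPM in siTDP-43 and 22.2 ± 2.19 TPM in siControl libraries (SD, n = 3 each), and the HIST2 sum was 59.6 ± 4.25 TPM in siTDP-43 and 66.2 ± 3.32 TPM in siControl libraries.

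The first comparison asked what depletion of TDP-43 does to these genes. HIST3H2A rose, and HIST1H3E, HIST2H4A and HIST2H2BE fell. Over the 32 members tested, 1 was higher (3.12%) and 3 were lower (9.38%) at a limma adjusted p under 0.05, while of all 17118 genes tested 6.19% were called higher and 19.8% lower. The median log2 fold change of the members was -0.05, against -0.08 over all genes; with median-of-ratios scaling both shift, to 0.01 for the members and 0 for all genes. Groups did not overlap in 2 members that stood higher and 8 that stood lower, against 11.9% and 31.7% of all genes.

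HIST3H2A, a single-exon H2A gene on chromosome 1 (GRCh38, 228456979 to 228457873, minus strand), had 23.3, 23.4 and 24.98 TPM in siTDP-43 libraries, against 18.4, 16.8 and 21.2 TPM in siControl libraries. Every siTDP-43 library lay above every siControl library. The log2 fold change was 0.33 ± 0.08 (SE; limma adjusted p = 0.017), and the call was lost without siTDP-43 replicate 3 (adjusted p = 0.063) and without siControl replicate 2 (adjusted p = 0.052). In the genotype libraries the same gene had 11.5 and 12.9 TPM in N352S and 15.2 and 15.3 TPM in wild-type cells. That difference, of -0.31 ± 0.10 on the log2 scale, was not called (adjusted p = 0.064), although it was called without siControl replicate 2 (adjusted p = 0.046) or 3 (adjusted p = 0.023), which lend the fit their spread only.

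HIST1H3E, an H3 gene on chromosome 6 (26224199 to 26227473, plus strand), had 1.56, 0.95 and 1.10 TPM in siTDP-43 libraries, against 2.96, 1.97 and 2.11 TPM in siControl libraries. Its siTDP-43 mean was 51.3% of control, with a log2 fold change of -0.60 ± 0.16 (adjusted p = 0.026). All values are low, and the call was lost without a filter on low values (adjusted p = 0.068) and without siTDP-43 replicate 2 (0.088), siTDP-43 replicate 3 (0.081) or siControl replicate 1 (0.077).

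HIST2H4A, an H4 gene on chromosome 1 (149832659 to 149839767, plus strand), had 4.73, 4.83 and 4.49 TPM in siTDP-43 libraries, against 8.60, 6.30 and 6.20 TPM in siControl libraries. The groups did not overlap, and the log2 fold change was -0.49 ± 0.14 (adjusted p = 0.032). Its coding sequence is identical to that of HIST2H4B, to which the authors' counting may assign the same reads, and it overlaps HIST2H3C on the opposite strand. Summed with HIST2H4B, the pair held 7.02 ± 0.369 TPM in siTDP-43 and 8.98 ± 1.31 TPM in siControl libraries (SD, n = 3 each) and was not called (log2 -0.31, adjusted p = 0.078). The call was also lost without a filter on low values (adjusted p = 0.085), and without any one siTDP-43 library or siControl replicate 1, at adjusted p of 0.071 to 0.094.

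HIST2H2BE, an H2B gene on chromosome 1 (149884459 to 149886652, minus strand) whose promoter is shown above, had 3.47, 3.05 and 3.39 TPM in siTDP-43 libraries, against 4.73, 3.95 and 4.45 TPM in siControl libraries. Its log2 fold change was -0.32 ± 0.10 (adjusted p = 0.041). The call did not hold with the replicate numbers as a block (adjusted p = 0.066), in a fit of only the groups compared (0.052) or without a filter on low values (0.11), and it was lost without any one siTDP-43 library, siControl replicate 1 or siControl replicate 3, at adjusted p of 0.075 to 0.13. With median-of-ratios or quantile scaling, HIST2H4A and HIST2H2BE were not called, which left 1 member higher and 1 lower. Over all 17118 genes, median-of-ratios scaling gave 1944 higher and 2077 lower, and quantile scaling 1932 higher and 2015 lower.

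HIST1H2BK, the most abundant member, had 60.1, 59.1 and 68.5 TPM in siTDP-43 libraries, against 50.1, 49.5 and 57.1 TPM in siControl libraries. The groups did not overlap, and the log2 difference of 0.26 ± 0.13 was not called (adjusted p = 0.19), whereas with the replicate block it was (adjusted p = 0.014). The block thus gave 2 members higher, HIST1H2BK and HIST3H2A, and 2 lower, HIST1H3E and HIST2H4A.

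**Figure D3:**
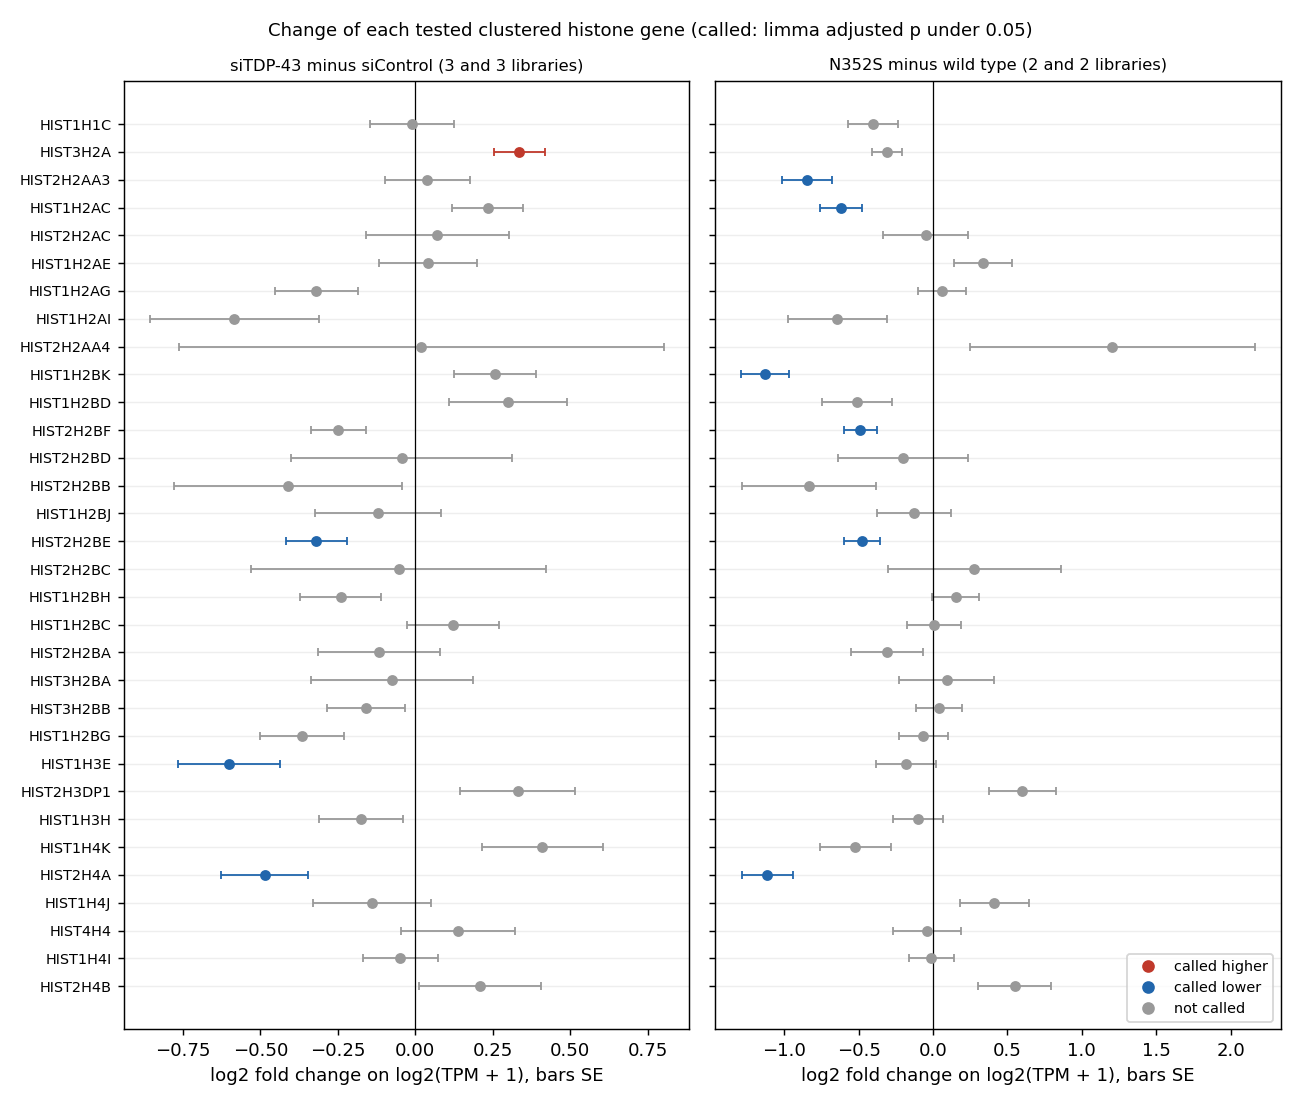
Log2 fold change on the log2(TPM + 1) scale of each of the 32 tested clustered histone genes (points) with its SE (bars), for siTDP-43 minus siControl (left) and N352S minus wild type (right). Red points were called higher and blue points lower at a limma adjusted p under 0.05: 1 and 3 on the left, 0 and 6 on the right; the 2 panels have different horizontal scales.

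The second comparison asked how cells with the N352S change differ from wild type. HIST1H2BK, HIST2H4A, HIST2H2AA3, HIST1H2AC, HIST2H2BF and HIST2H2BE fell in N352S cells, to between 36.0% and 68.3% of their wild-type mean. No member was called higher by limma, and 9 members had an unadjusted p under 0.05, counting both directions. The 6 lower members were 18.8% of the 32 tested, while 11.9% of all genes tested were called lower and 8.28% higher (20.2% in either direction). The median log2 fold change of the members was -0.11, against -0.03 over all genes. Both N352S libraries lay below both wild-type libraries in 14 members and above them in 4, against 34.7% and 25.4% of all genes.

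HIST1H2BK (chromosome 6, 27146418 to 27146798, minus strand) had 10.8 and 13.1 TPM in N352S libraries, against 22.6 and 32.9 TPM in wild-type libraries. Its N352S mean was 43.2% of wild type, and the log2 fold change was -1.13 ± 0.16 (SE; limma adjusted p = 0.0016). The gene made up 10.8% to 11.2% of all clustered histone TPM in N352S and 16.4% to 21.1% in wild-type libraries. The call held in all 17 alternatives tried, at adjusted p of 0.00078 to 0.038.

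Of the other H2B genes, HIST2H2BF (chromosome 1, 149782689 to 149812373, minus strand) had 6.62 and 5.73 TPM in N352S libraries, against 8.82 and 9.27 TPM in wild-type libraries, a log2 fold change of -0.49 ± 0.11 (adjusted p = 0.014). It overlaps FCGR1A on the opposite strand and AC243772.2 on the same strand, and whether the counting separated strands is not stated. HIST1H2BD likewise overlaps AL353759.1 on the opposite strand and LARP1P1 on the same strand. HIST2H2BE had 1.71 and 1.63 TPM in N352S libraries, against 2.91 and 2.52 TPM in wild-type libraries, with a log2 fold change of -0.47 ± 0.12 (adjusted p = 0.023). HIST1H2BD, the second most abundant H2B gene, had 2.65 and 5.06 TPM in N352S libraries, against 5.49 and 5.93 TPM in wild-type libraries; its log2 difference of -0.51 ± 0.23 was not called (adjusted p = 0.16). The N352S libraries of HIST1H2BD differ widely, and without N352S replicate 82 the difference was -0.88 (adjusted p = 0.029). In a fit of only the groups compared, where the siRNA libraries lend no estimate of the spread, neither HIST2H2BF (adjusted p = 0.065) nor HIST2H2BE (0.12) was called, and without a filter on low values HIST2H2BE was not (0.059). The HIST2H2BF call was also lost without N352S replicate 82, wild-type replicate 79 or wild-type replicate 80 (adjusted p of 0.055 to 0.083), and that of HIST2H2BE without N352S replicate 81, N352S replicate 82 or wild-type replicate 79 (0.061 to 0.14).

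Among H2A genes, HIST1H2AC (chromosome 6, 26124145 to 26139116, plus strand) had 1.24 and 1.12 TPM in N352S libraries, against 2.07 and 2.65 TPM in wild-type libraries. The log2 fold change was -0.62 ± 0.14 (adjusted p = 0.015), and the call was lost in the fit of only the groups compared (adjusted p = 0.089) and without N352S replicate 82 (0.072) or wild-type replicate 80 (0.093). HIST2H2AA3 (chromosome 1, 149842188 to 149842736, minus strand) had 5.81 and 3.86 TPM in N352S libraries, against 9.48 and 9.19 TPM in wild-type libraries, with a log2 fold change of -0.85 ± 0.17 (adjusted p = 0.008). The call was lost in the fit of only the groups compared (adjusted p = 0.059) and without wild-type replicate 79 (0.052).

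HIST2H4A had 2.20 and 1.65 TPM in N352S libraries, against 6.06 and 4.62 TPM in wild-type libraries, which left 36.0% of the wild-type mean. The log2 fold change was -1.11 ± 0.17 (adjusted p = 0.0023), and the call held in all 16 alternatives that keep it or its pair, at adjusted p of 0.0014 to 0.034. Its copy HIST2H4B stood the other way, with 1.63 and 2.74 TPM in N352S libraries and 1.10 and 1.19 TPM in wild-type libraries (log2 0.55 ± 0.24, adjusted p = 0.15). The pair summed to 4.11 ± 0.396 TPM in N352S and 6.49 ± 0.955 TPM in wild-type libraries (SD, n = 2 each), and that smaller difference of -0.55 on the log2 scale was still called (adjusted p = 0.024).

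The sum of copies decided the call of HIST2H2AA3. Its copy HIST2H2AA4, identical in coding sequence, was listed at 0 in 7 of the 10 libraries and at 2.93 TPM in siTDP-43 replicate 1, 2.78 TPM in siControl replicate 2 and 4.31 TPM in N352S replicate 82. Where HIST2H2AA4 was above 0, HIST2H2AA3 was the lowest of its group. Summed, the pair held 6.99 ± 1.67 TPM in N352S and 9.34 ± 0.205 TPM in wild-type libraries (SD, n = 2 each), and the log2 difference of -0.39 was not called (adjusted p = 0.053). In the knockdown experiment the pair held 16.4 ± 0.806 TPM in siTDP-43 and 15.9 ± 0.337 TPM in siControl libraries. HIST2H3A and HIST2H3C, a further pair of identical copies, have the same TPM as each other in all 10 libraries.

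**Figure D4:**
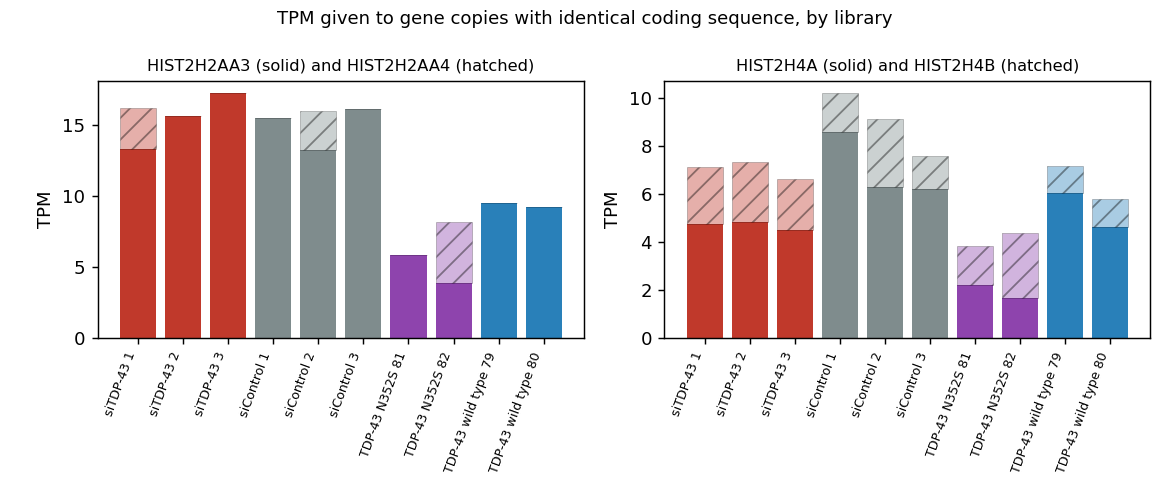
TPM given to HIST2H2AA3 and its copy HIST2H2AA4 (left) and to HIST2H4A and its copy HIST2H4B (right) in each library, stacked, with the copy hatched; red bars are siTDP-43, grey siControl, purple N352S and blue wild-type libraries. HIST2H2AA4 is above 0 in 3 libraries only, and the summed height of the right-hand pair is 3.83 to 4.39 TPM in N352S and 5.81 to 7.16 TPM in wild-type libraries.

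The other members named by level were not called in either comparison. HIST1H1C, a linker histone gene, had 21.6, 17.8 and 21.0 TPM in siTDP-43 libraries, against 21.8, 16.6 and 22.8 TPM in siControl libraries, and 6.57 and 8.29 TPM in N352S libraries, against 9.24 and 10.98 TPM in wild-type libraries. The knockdown groups overlapped (log2 -0.01, 95% interval -0.32 to 0.30), and the N352S libraries lay below the wild-type ones (log2 -0.40 ± 0.17, adjusted p = 0.13).

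HIST1H2BD had 25.6, 20.1 and 22.5 TPM in siTDP-43 libraries, against 16.4, 16.3 and 22.6 TPM in siControl libraries (log2 0.30 ± 0.19, adjusted p = 0.29). HIST2H2AA3 had 13.3, 15.7 and 17.2 TPM in siTDP-43 libraries, against 15.5, 13.2 and 16.1 TPM in siControl libraries, and HIST1H2AC had 10.7, 8.46 and 9.87 TPM in siTDP-43 libraries, against 8.69, 7.08 and 8.43 TPM in siControl libraries. These groups overlapped, with log2 differences of 0.04 ± 0.14 and 0.23 ± 0.12. HIST2H2BF had 10.1, 9.83 and 10.6 TPM in siTDP-43 libraries, against 10.97, 12.1 and 13.9 TPM in siControl libraries, without overlap, and was not called (log2 -0.25 ± 0.09, adjusted p = 0.071), except without siControl replicate 1 (adjusted p = 0.032).

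HIST1H4K and HIST1H4J are H4 genes with identical coding sequence. HIST1H4K had 5.73, 6.79 and 7.62 TPM in siTDP-43 libraries, against 4.11, 6.27 and 4.19 TPM in siControl libraries, while HIST1H4J had 4.32, 4.64 and 3.65 TPM in siTDP-43 libraries, against 5.36, 3.42 and 5.64 TPM in siControl libraries. In N352S libraries HIST1H4K had 4.59 and 6.92 TPM, against 7.14 and 10.2 TPM in wild-type libraries, and HIST1H4J had 5.01 and 3.17 TPM in N352S libraries, against 3.06 and 2.48 TPM in wild-type libraries. The pair summed to 10.9 ± 0.755 TPM in siTDP-43 and 9.66 ± 0.182 TPM in siControl libraries, and to 9.85 ± 0.347 TPM in N352S and 11.4 ± 1.75 TPM in wild-type libraries. In each of the 4 groups, the library with the highest HIST1H4K had the lowest HIST1H4J. Neither gene was called in either comparison.

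Of the H3 members, HIST1H3H had 1.41, 1.24 and 1.29 TPM in siTDP-43 libraries, against 1.93, 1.30 and 1.64 TPM in siControl libraries, and 0.45 and 0.60 TPM in N352S libraries, against 0.63 and 0.64 TPM in wild-type libraries. HIST2H3DP1, annotated as a pseudogene, had 1.32, 1.35 and 1.01 TPM in siTDP-43 libraries, against 1.04, 0.96 and 0.38 TPM in siControl libraries, and 2.33 and 1.57 TPM in N352S libraries, against 0.93 TPM in both wild-type libraries. The N352S difference of HIST2H3DP1 (log2 0.60 ± 0.23) was not called (adjusted p = 0.097); it was called with quantile normalization (adjusted p = 0.046) and without siControl replicate 3 (0.047). HIST1H3E had 0.56 and 0.78 TPM in N352S libraries, against 0.97 and 0.81 TPM in wild-type libraries (adjusted p = 0.58).

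The remaining 18 tested members, none of them called, had log2 fold changes between -0.58 and 0.21 in siTDP-43 minus siControl and between -0.83 and 1.20 in N352S minus wild type, the extreme of 1.20 being HIST2H2AA4. The 45 members below 1 TPM together held 16.5 ± 0.579 TPM in siTDP-43 and 16.7 ± 4.57 TPM in siControl libraries (SD, n = 3 each), and 9.72 ± 2.99 TPM in N352S and 9.30 ± 1.87 TPM in wild-type libraries (SD, n = 2 each). Neither difference exceeds the spread between libraries.

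The knockdown effect and the N352S effect were then compared in the same fit. The difference between the effects was called for 4 of the 32 members (12.5%), each with the higher value in the knockdown, and for none in the other direction; 7 members had an unadjusted p under 0.05, counting both directions. Over all genes 8.2% were called higher and 13.8% lower. The difference was 1.38 ± 0.21 for HIST1H2BK (limma adjusted p = 0.0019), 0.88 ± 0.22 for HIST2H2AA3 (0.019), 0.85 ± 0.18 for HIST1H2AC (0.01) and 0.64 ± 0.13 for HIST3H2A (0.0082). For HIST2H4A, which was lower in both comparisons, the difference was 0.63 ± 0.22 (adjusted p = 0.075), and for HIST2H2BE, also lower in both, 0.15 ± 0.15, with a 95% interval of -0.20 to 0.51. The HIST2H2AA3 difference was not called when the copies were summed, nor without a filter on low values (adjusted p = 0.05), nor without N352S replicate 82 (adjusted p = 0.053), wild-type replicate 79 (0.067) or wild-type replicate 80 (0.054).

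Genes that act with the clustered histones were read from lists. Their counts in the knockdown depend on the scaling, and so do those of some lists in N352S libraries. They stand beside the shares of all genes tested, 6.19% higher and 19.8% lower in siTDP-43 libraries and 8.28% higher and 11.9% lower in N352S libraries. These shares depend on the scaling too. With median-of-ratios scaling, 1944 of all 17118 genes were higher and 2077 lower in siTDP-43 libraries. In N352S libraries that scaling gave 1846 higher and 1666 lower. The list of replication-independent histone genes holds genes, H2AFX among them, whose products can enter chromatin outside S phase. Of its 10 tested members, none was higher and 3 were lower (30%) in siTDP-43 libraries. In N352S libraries 3 were higher (30%) and 2 lower (20%). With median-of-ratios scaling the knockdown gave 1 higher and 2 lower, and N352S 4 higher and 1 lower. Quantile normalization gave 3 higher and 3 lower in N352S libraries. H2AFV, which encodes an H2A.Z protein, averaged 176.7 ± 7.95 TPM in siTDP-43 and 324.2 ± 10.97 TPM in siControl libraries (log2 -0.87, adjusted p = 7.2e-06). CENPA, the centromeric H3, averaged 34.5 ± 1.20 TPM in siTDP-43 and 48.7 ± 4.63 TPM in siControl libraries, and 62.8 ± 1.77 TPM in N352S and 40.0 ± 1.29 TPM in wild-type libraries (adjusted p = 0.00094 and 0.00068). H3F3B, a gene for H3.3, averaged 1068 ± 15.3 TPM in N352S and 929.3 ± 9.40 TPM in wild-type libraries, and the linker histone gene H1F0 247.4 ± 6.79 TPM in N352S and 211.2 ± 0.156 TPM in wild-type libraries.

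Of 24 genes for histone mRNA transcription and 3′ processing, none was higher and 6 were lower (25%, against 19.8% of all genes) in siTDP-43 libraries, and 2 were higher (8.33%) and 1 lower (4.17%) in N352S libraries. With median-of-ratios scaling 3 were higher and 3 lower in siTDP-43 libraries. LSM11, a protein of the U7 snRNP, averaged 7.64 ± 0.106 TPM in N352S and 4.30 ± 0.262 TPM in wild-type libraries (log2 0.71, adjusted p = 0.0004). ERI1, the exonuclease that trims and degrades histone mRNA from its end, averaged 26.6 ± 1.20 TPM in N352S and 18.9 ± 1.32 TPM in wild-type libraries (log2 0.47, adjusted p = 0.0049), and ZNF473, a zinc finger protein that binds the U7 snRNP, 14.3 ± 0.212 TPM in N352S and 16.9 ± 0.255 TPM in wild-type libraries (log2 -0.23, adjusted p = 0.012). In the knockdown, NELFE, a subunit of the elongation factor NELF, averaged 98.8 ± 2.01 TPM in siTDP-43 and 126.0 ± 4.49 TPM in siControl libraries, the cap-binding subunit NCBP1 35.9 ± 0.616 TPM in siTDP-43 and 42.3 ± 0.343 TPM in siControl libraries, and the cleavage nuclease CPSF3 87.1 ± 1.39 TPM in siTDP-43 and 99.6 ± 2.48 TPM in siControl libraries. Of 20 histone chaperones, none was higher and 4 were lower in siTDP-43 libraries (20%, near the 19.8% of all genes), among them ANP32E, which removes H2A.Z (log2 -0.52); with median-of-ratios scaling 2 were higher and 2 lower. In N352S libraries none was higher and 3 were lower (15%, against 11.9% of all genes), among them the H3.3 chaperone HIRA (log2 -0.25). The number lower in N352S libraries was 2 with median-of-ratios scaling and 4 with quantile normalization.

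Since these genes are used in S phase, cell cycle genes stand beside them. Of 30 S-phase genes, none was higher in either comparison, 4 were lower in siTDP-43 libraries (13.3%, against 19.8% of all genes) and 5 in N352S libraries (16.7%, against 11.9%); with median-of-ratios scaling the knockdown gave 3 higher and 3 lower, and N352S 4 lower. The uracil glycosylase gene UNG averaged 27.6 ± 0.416 TPM in siTDP-43 and 38.3 ± 0.895 TPM in siControl libraries, and 35.3 ± 0.0354 TPM in N352S and 43.8 ± 1.22 TPM in wild-type libraries. The replicative helicase genes MCM7 and MCM5 were lower in N352S libraries by 0.25 and 0.22 on the log2 scale. All 25 genes of G2 and mitosis were lower in siTDP-43 libraries, with a median log2 fold change of -0.36, and 4 were higher and none lower in N352S libraries. With median-of-ratios scaling 21 of them were lower in siTDP-43 and 10 higher in N352S libraries. The part of the cell cycle in the histone values was not tested.

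**Figure D5:**
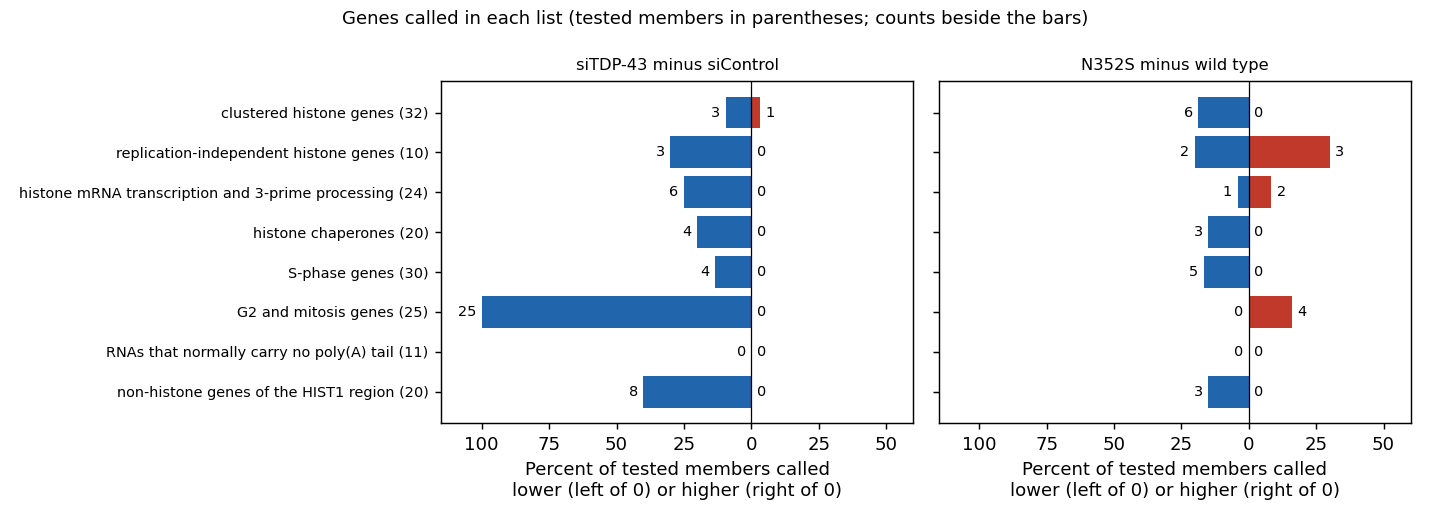
Percent of the tested members of each list that were called lower (blue, left of 0) or higher (red, right of 0), for siTDP-43 minus siControl and N352S minus wild type, with the counts beside the bars and the number tested in parentheses. Of the clustered histone genes 3 were lower and 1 higher in the knockdown and 6 lower in N352S cells, while all 25 genes of G2 and mitosis were lower in the knockdown (21 with median-of-ratios scaling).

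RNAs that normally carry no poly(A) tail bear on how the RNA was captured, and none of them was called. These RNAs (24 rows of 18 symbols) summed to 3408 and 1552 TPM in N352S and 1463 and 501.4 TPM in wild-type libraries. Their sums were 209.1 to 363.5 TPM in siTDP-43 and 283.5 to 481.9 TPM in siControl libraries. Most of it was RN7SL2 and RN7SL1, the RNA of the signal recognition particle, with RN7SL2 at 2179 and 940.1 TPM in N352S and 1003 and 290.1 TPM in wild-type libraries; these were named after their values were seen, and the RN7SL2 values overlap between the groups. Without both genes the sums were 38.4 and 81.4 TPM in N352S and 37.6 and 43.3 TPM in wild-type libraries. Of the 11 rows tested, none was called by limma in either comparison, and 0 had an unadjusted p under 0.05 in the knockdown and 2 in N352S cells. Their part in the histone differences was not tested. The 20 tested non-histone genes that lie within the HIST1 region (chromosome 6, 25726132 to 27893843) had 8 called lower in siTDP-43 libraries (40%, against 19.8% of all genes) and 3 in N352S libraries (15%, against 11.9%), and none higher (1 higher in the knockdown with median-of-ratios scaling). Among them the chromatin protein gene HMGN4 was lower in both, with log2 fold changes of -0.27 in the knockdown and -0.19 in N352S cells.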

How the data were processed

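Per the submitters' processing notes, the tools were STAR and RSEM and the build hg38; their versions and the annotation are not stated. The deposited table holds TPM per gene, and RSEM is known to divide reads shared by copies between them. Strand-specific counting is not stated. Genes averaging 1 TPM or more were fitted as log2(TPM + 1), with 4 group means and a trended prior variance, by limma 3.58.1 under R 4.3.3. P-values were Benjamini-Hochberg adjusted over all 17118 genes and called under 0.05. Fold changes on this scale understate changes of low genes. The fit was tested on simulated data. The members, lists, markers and tests were chosen with earlier results of these data known. Values in every library are given for members called in either comparison and the 3 highest per type, and up to 3 genes per other list by smallest adjusted p are named.

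Deviations from group means correlated at 0.336, 0.137 and 0.198 between siRNA libraries of the same number in the titles. The highest correlation with a library of another number was -0.178, 0.0151 and 0.0908, in the same order. The main fit did not pair libraries by these numbers, which entered only in the alternative with the replicate block. That alternative fitted the siRNA libraries alone. Alternatives were a pseudocount of 0.1, no filter or a mean of 5 TPM, median-of-ratios and quantile scaling, only the groups compared, the block, copies summed, and each library left out. GENCODE release 29 held 57836 of the 58174 gene IDs. Figures were drawn with matplotlib 3.10.9.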

Additional observations from a re-analysis of the deposited data

Results flagged for a closer look

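The knockdown effect and the N352S effect differed beyond the fit's error (limma adjusted p under 0.05) in 4 of the 32 clustered histone genes tested. These were 12.5%, all with the higher value in the knockdown, while of all genes tested 8.2% were called higher and 13.8% lower. The difference was 1.38 on the log2 scale for HIST1H2BK, 0.88 for HIST2H2AA3, 0.85 for HIST1H2AC and 0.64 for HIST3H2A. In each of them the N352S libraries lay below the wild-type libraries without overlap, and in HIST1H2BK and HIST3H2A the siTDP-43 libraries lay above the siControl libraries without overlap. Of all genes tested, 34.7% lay lower without overlap in N352S libraries and 11.9% higher without overlap in siTDP-43 libraries. The HIST2H2AA3 difference was not called when its copy HIST2H2AA4 was added, nor without a filter on low values. The experiments share no control libraries.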

How the results depend on the processing

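In siTDP-43 minus siControl, 1 member was higher and 3 lower; without a filter 2 were higher and 2 lower (HIST2H3A and HIST2H3C, copies of equal TPM, and none of those 3), with the replicate block 2 and 2, at 5 TPM or more 1 and 0, with median-of-ratios scaling 1 and 1, and with quantile normalization 1 and 1. Leaving out 1 library gave 0 to 1 higher and 0 to 4 lower, with none called without siTDP-43 replicate 3. The fit with the block, which used the siRNA libraries alone, differed from the main fit only in the calls of HIST1H2BK and HIST2H2BE among the named members. HIST2H2BE was already not called in the fit of those libraries without the block, so the block changed only the call of HIST1H2BK. In N352S minus wild type, 0 were higher and 6 lower; quantile normalization gave 1 higher, a fit of only the groups compared 2 lower, and leaving out 1 library 0 to 1 higher and 3 to 7 lower. The summed TPM in N352S was lower by 38.1 (-38.09) and by 22.3 (-22.3) without HIST1H2BK, and leaving out 1 library gave -46.9 to -29.2. The uncalled difference of HIST1H1C in the knockdown was -0.01, 0.073 with median-of-ratios scaling and 0.085 with quantile normalization, and leaving out 1 library gave -0.14 to 0.074, above 0 without siTDP-43 replicate 2, siControl replicate 1 or siControl replicate 3. That of HIST2H2AA3 was 0.04, and leaving out 1 library gave -0.042 to 0.13, below 0 without siTDP-43 replicate 3 or siControl replicate 2. That of HIST1H3H in N352S was -0.10, and 0.11 with quantile normalization. At 5 TPM or more none of the 3 lower members is tested; the cause of the other changes was not tested. Calls of HIST3H2A were lost in 2 of 18 alternatives, of HIST1H3E in 4 of 17, of HIST2H4A in 8 of 17 and of HIST2H2BE in 10 of 17 in the knockdown. In N352S, those of HIST1H2AC and HIST2H2AA3 were lost in 3 of 17 each, of HIST2H2BF in 4 of 17 and of HIST2H2BE in 5 of 16. With 2 libraries a group, the fit assumes that the genotype libraries vary like the siRNA libraries. Depth is unknown, so no counting interval can be given for the many members under 1 TPM.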

Other observations

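HIST2H3PS2, one of the 14 rows left out for a pseudogene name, was listed at 0 in both N352S libraries and at 1.45 and 3.63 TPM in the wild-type libraries, and at 0 in every siRNA library. HIST1H2AJ, an H2A gene below the limit of 1 TPM, had 0.60, 1.68 and 0.95 TPM in siTDP-43 libraries, against 0, 0 and 0.44 TPM in siControl libraries, and was called higher when no filter was applied. Its closest copy, HIST1H2AI (96.4% identical in coding sequence), averaged 0.903 TPM in siTDP-43 and 1.95 TPM in siControl libraries, and the pair summed to 1.61, 2.68 and 1.65 TPM in siTDP-43 libraries, against 2.60, 0.92 and 2.77 TPM in siControl libraries, with overlap. In the genotype libraries HIST1H2AJ had 0.68 and 0.59 TPM in N352S cells and was listed at 0 in both wild-type libraries. HIST2H3PS2 and HIST1H2AJ were chosen after their values were seen.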
